A study of Mus musculus with 4 samples.

Results

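Granulocyte progenitors of mouse long bone were followed here as the barcodes whose messenger RNA was rich in the proteases and peroxidase of primary granules. They were chosen by 4 genes, Mpo, Elane, Prtn3 and Ctsg, which together had to supply at least 1% of the UMIs (unique molecular identifiers, 1 for each captured transcript) of a barcode. Barcodes with 3 or more UMIs of the monocyte genes Csf1r, Ms4a6c and Ccr2 in sum, or with 2 or more of the B cell gene Cd79a, were left out. The quality limits were 1000 to 40000 UMIs, at least 200 genes, at most 10% mitochondrial UMIs and at most 0.2% alpha and beta globin UMIs. Of 31279 barcodes within these limits, 673 were granulocyte progenitors, with 72 in Ctrl replicate 1, 108 in Ctrl replicate 2, 138 in HLU replicate 1 and 355 in HLU replicate 2.

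The study asked how cell types of the bone respond to the loss of mechanical load. Wild-type C57BL/6J mice were tail-suspended for 28 days (hindlimb unloading, HLU), and the control mice (Ctrl) were caged alike without suspension. Each group held 2 mice, with 1 library for each mouse. The study's methods put the mice at 8 weeks of age at the start, whereas the deposited design text speaks of postnatal day 28, and the sex of the sequenced mice was not given in the sources used here. Marrow was flushed out of tibiae and femurs before the remaining tissue was digested with enzymes, so the granulocyte progenitors were those that stayed with the bone after flushing. Transcripts were counted at their 3′ ends in droplets (10x Genomics v3.1 chemistry).

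Neutrophils are built in steps that can be read from their granules. Promyelocytes make primary (azurophil) granules, filled with myeloperoxidase, neutrophil elastase, proteinase 3 and cathepsin G, while they still divide. Myelocytes and metamyelocytes then stop making these proteins and fill secondary granules with lactoferrin, cathelicidin and lipocalin 2. Transcription factors of the C/EBP family and PU.1 are known drivers of the primary granule genes, C/EBP epsilon is required for the secondary granule genes, and GM-CSF and G-CSF are the main growth factors of the lineage.

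Promoters of the 5 marker genes are shown because these genes mark the same cells and because 2 motifs of the factors named above could be read in them. Elane (neutrophil elastase) and Prtn3 (proteinase 3) lie near each other on the plus strand, with windows at chr10:79886062-79886361 and chr10:79879417-79879716. The windows of the other 3 were chr11:87793534-87793833, plus strand, for Mpo (myeloperoxidase), chr14:56102525-56102824, minus strand, for Ctsg (cathepsin G) and chr19:11640802-11641101, minus strand, for Ms4a3, a membrane protein of granulocyte and monocyte progenitors. Each runs 5′ to 3′ over 250 bases before and 50 bases after the start of the gene in RefSeq, build GRCm38.p6. Capitals mark the PU box GAGGAA and the C/EBP motif TTGCNNAA.
Elane: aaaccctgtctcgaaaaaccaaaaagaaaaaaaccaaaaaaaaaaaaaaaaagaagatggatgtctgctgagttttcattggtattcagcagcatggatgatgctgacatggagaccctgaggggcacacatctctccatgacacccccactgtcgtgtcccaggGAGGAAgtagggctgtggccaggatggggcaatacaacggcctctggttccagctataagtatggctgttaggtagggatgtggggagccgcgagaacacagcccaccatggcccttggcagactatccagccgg
Prtn3: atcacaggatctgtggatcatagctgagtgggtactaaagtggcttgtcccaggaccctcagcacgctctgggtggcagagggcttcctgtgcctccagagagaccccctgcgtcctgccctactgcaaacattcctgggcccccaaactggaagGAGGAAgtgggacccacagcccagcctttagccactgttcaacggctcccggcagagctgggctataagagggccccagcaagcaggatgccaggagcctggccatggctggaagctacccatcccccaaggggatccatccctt
Mpo: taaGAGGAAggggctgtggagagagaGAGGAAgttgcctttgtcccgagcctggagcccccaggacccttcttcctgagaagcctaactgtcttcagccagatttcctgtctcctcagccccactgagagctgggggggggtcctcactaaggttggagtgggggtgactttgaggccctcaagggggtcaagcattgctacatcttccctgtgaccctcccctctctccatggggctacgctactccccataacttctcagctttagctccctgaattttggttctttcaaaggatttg
Ctsg: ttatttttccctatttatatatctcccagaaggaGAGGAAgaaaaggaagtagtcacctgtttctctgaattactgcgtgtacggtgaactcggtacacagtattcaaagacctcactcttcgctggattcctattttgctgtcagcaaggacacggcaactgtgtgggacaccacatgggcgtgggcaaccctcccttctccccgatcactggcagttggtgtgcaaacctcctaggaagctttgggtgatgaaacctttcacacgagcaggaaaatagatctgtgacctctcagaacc
Ms4a3: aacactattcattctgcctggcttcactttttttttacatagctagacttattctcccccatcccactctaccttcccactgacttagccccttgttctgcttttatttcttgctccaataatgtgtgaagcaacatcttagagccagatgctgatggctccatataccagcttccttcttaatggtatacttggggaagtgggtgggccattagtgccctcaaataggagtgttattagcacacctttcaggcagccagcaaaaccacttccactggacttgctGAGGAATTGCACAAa
The PU box was found at -85 in Elane, -95 in Prtn3, -216 in Ctsg and -247 and -224 in Mpo, as the offset of the first base of the motif from that of the gene. In Ms4a3 it stood at offset 35, and the C/EBP motif followed it directly at 41, without overlap. Both strands were searched, and all 5 windows held a PU box, against 28.3% of the 32851 promoters of the same length in the table. The C/EBP motif was in 10.8% of all promoters. The primary granule list had 12 promoters, for 11 of its 13 genes, of which 7 (58.3%) held the PU box and 2 (16.7%) the C/EBP motif. The secondary granule list had 12, for 12 of its 13 genes, of which 6 (50%) held the PU box and 5 (41.7%) the C/EBP motif. For the 35 matched genes that led the granulocyte progenitors the shares over 47 promoters were 23.4% and 17.0%. These are matches of letters, and binding was not measured.

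Where 4 values follow each other, the first pair are Ctrl replicates 1 and 2 and the second pair are HLU replicates 1 and 2. The libraries held 57925383, 61296053, 47819046 and 99849070 UMIs in 10000, 10000, 10000 and 10003 barcodes. HLU replicate 2 stood apart from the others. Its granulocyte progenitors had a median of 22372 UMIs, against 11770.0, 14952.5 and 11551.5, and a median of 4084 genes, against 2355, 2618.5 and 2478.5. Mitochondrial UMIs had a median of 1.85% there and of 4.02%, 3.68% and 4.07% in the other 3. The 40000 UMI limit removed 38 further barcodes of HLU replicate 2 that met all other limits, against 1, 0 and 0 in the other libraries. Results that rest on HLU replicate 2 are therefore also given without it. No barcode sequence of a granulocyte progenitor was shared by 2 libraries, and 13 to 21 passing barcode sequences were shared by any pair.

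The marker that the rule did not use stood with the label. Ms4a3 reached 944, 913, 915 and 1439 CPM (UMIs per 1000000 UMIs) in granulocyte progenitors and was 19.96-fold higher there than in all other passing barcodes, as the geometric mean over the 4 libraries of CPM + 1. The genes of the rule were higher by 54.3-fold (Elane), 48.6-fold (Mpo), 32.0-fold (Ctsg) and 27.1-fold (Prtn3), which the rule itself brought about. Other leading genes with at least 100 CPM were Nkg7, a granule membrane protein, at 24.8-fold, Prss57, a granule serine protease, at 17.5-fold, and Cst7 (cystatin F, an inhibitor of cathepsins) at 13.9-fold. Vcam1 (11.1-fold), Gatm (10.9-fold), Plac8 (9.49-fold), Ly6c2 (8.72-fold), Clec12a (6.99-fold), Phgdh, the first enzyme of serine synthesis (6.17-fold), and Myb, a transcription factor of dividing progenitors (6.01-fold), followed. Barcodes that met the primary granule minimum but held 3 or more UMIs of the monocyte genes (6, 13, 24 and 105) were the most alike, and many leading genes were as high or higher there. Over these the progenitors' levels were 0.564-fold for Phgdh, 0.565-fold for Myb, 0.921-fold for Ly6c2 and 0.983-fold for Cst7, against 1.65-fold for Ms4a3, 2.68-fold for Prss57 and 3.72-fold for Fcnb. These folds describe the barcodes and were not tested, because the barcodes were picked on their expression.

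Secondary granule barcodes were the nearest neighbours in the lineage. They were defined by at least 2% of UMIs from Ltf, Camp and Ngp and under 1% from the 4 primary granule genes, with the same limits on monocyte and B cell genes, and numbered 844, 1349, 2137 and 2407. Against them, Mpo was 104-fold, Ctsg 70.3-fold, Elane 37.8-fold, Dmkn 22.8-fold and Phgdh 14.7-fold higher in granulocyte progenitors. Among secondary granule genes low in the progenitors, Ltf (lactoferrin) was at 0.0404 times and Mmp8 (neutrophil collagenase) at 0.0356 times the level of all other barcodes. Some genes of other cells were lower still, such as Igkc (0.0139 times) and Sparc (0.0242 times), while Col10a1 (0.0411 times) and Comp (0.0423 times) were not. Ribosomal proteins took 28.7%, 26.9%, 27.2% and 22.1% of the progenitors' UMIs and 10.1%, 8.67%, 9.52% and 7.47% of those of secondary granule barcodes, so the progenitors gave the higher share in all 4 libraries.

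Droplets carry free RNA, so the share of barcodes with at least 1 UMI was read beside that of B cell barcodes (at least 2 UMIs of Cd79a). To set depths equal, each share is the expected one after thinning to 3000 UMIs, over the 69, 101, 116 and 325 granulocyte progenitors and the 100, 220, 506 and 119 B cell barcodes that deep. Before thinning, the B cell barcodes had medians of 3660, 4113, 3757 and 2406 UMIs. Ms4a3 was seen in 88.1%, 86.6%, 89.7% and 97.2% of granulocyte progenitors and in 1.03%, 0.915%, 3.103% and 5.47% of B cell barcodes. Ltf was seen in 3.18%, 7.46%, 10.3% and 3.56% of granulocyte progenitors, below the 6.47%, 9.46%, 18.8% and 13.3% of B cell barcodes, and was read as background. Camp (cathelicidin), at 56.9%, 66.7%, 61.8% and 63.0%, stood above B cell barcodes with 38.1%, 45.5%, 52.7% and 38.5%. Kit, the stem cell factor receptor of early progenitors, was seen in 9.77%, 9.30%, 15.4% and 18.4%, against 0%, 2.35%, 1.56% and 1.35%. Cd34 was at 0%, 1.07%, 1.13% and 0.261%, and its summed UMIs were 0, 5, 8 and 7.

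Barcodes on either side of the limits of the rule were alike in Ms4a3 but not in all genes. The 59 granulocyte progenitors just inside the lower limit (1 to 1.1% of UMIs from the 4 genes) had 17385 CPM of Camp, 893 CPM of Ms4a3 and 25.5 CPM of Kit. The 60 barcodes just outside it (0.9 to 1%) had 14516, 832 and 64.0 CPM. At the monocyte limit, 105 granulocyte progenitors carried 2 UMIs of the monocyte genes and had 256 CPM of Cebpe, 105 CPM of Kit, 1292 CPM of Ms4a3 and 2209 CPM of Camp. The 50 barcodes with 3 UMIs had 188, 136, 1222 and 666 CPM, and Ngp went from 1889.9 to 529.6 CPM and Cd34 from 2.53 to 12.1 CPM.

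Granulocyte progenitors made up 0.985% of passing barcodes in Ctrl replicate 1, with an exact (Clopper-Pearson) 95% interval of 0.771 to 1.24%. The shares were 1.44% (1.18 to 1.74%) in Ctrl replicate 2, 1.82% (1.53 to 2.15%) in HLU replicate 1 and 3.99% (3.59 to 4.42%) in HLU replicate 2. The HLU libraries were both above the Ctrl libraries, and HLU replicate 2 was far above the rest. The group means were 1.21% ± 0.323 (SD, n = 2) in Ctrl and 2.91% ± 1.53 (SD, n = 2) in HLU, a difference of 1.69 points. An exact two-sided permutation test gave p = 0.333, the smallest that 2 against 2 libraries allow. With at least 2% of UMIs from the 4 genes the shares were 0.410%, 0.707%, 0.660% and 1.55%, the groups overlapped, and the difference was 0.547 points (exact permutation p = 0.667). The intervals cover counting error only.

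The denominator moved with the groups. Barcodes with 5% or more of their UMIs from cartilage and mesenchymal genes came to 2913 and 2154 without unloading, but to 64 and 85 with it. Among the barcodes under that level the granulocyte progenitors were 1.64%, 2.00%, 1.84% and 4.03%, the groups overlapped, and the difference of 1.11 points had an exact permutation p of 0.667. Of all primary and secondary granule barcodes they were 7.75%, 7.30%, 5.88% and 12.1%. On that scale HLU replicate 1 was the lowest library and HLU replicate 2 the highest, and the exact permutation p was 1. Fewer cells of other kinds in a library and more granulocyte progenitors cannot be told apart from shares of barcodes.

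**Figure D1:**
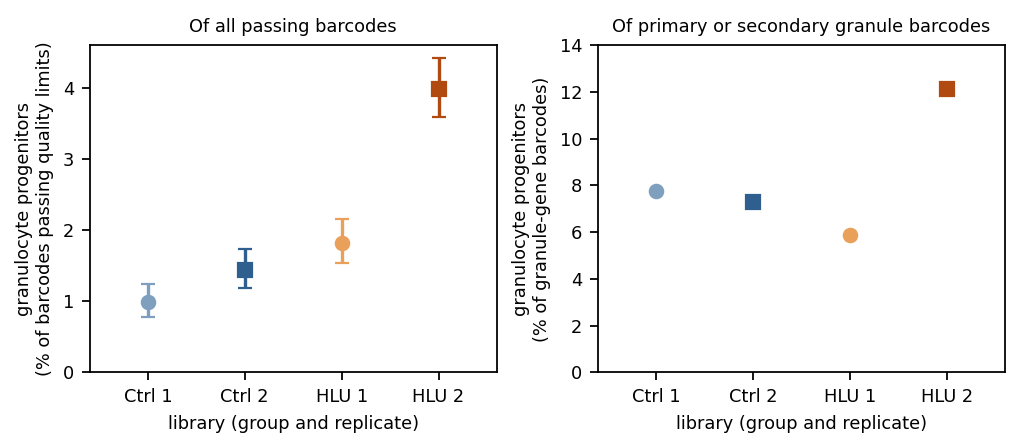
Share of granulocyte progenitors in each library (horizontal axis), as a percent of all barcodes that passed the quality limits (left, points with exact 95% binomial intervals) and as a percent of primary and secondary granule barcodes (right, points). The HLU libraries sit above the Ctrl libraries on the left, at 1.82% and 3.99%, but on the right HLU replicate 1, at 5.88%, is below both Ctrl libraries.

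To compare expression, UMIs were summed over the granulocyte progenitors of each library (876877, 1594303, 1625586 and 7694468 UMIs), and 7844 genes with enough counts were tested with edgeR's quasi-likelihood test and Benjamini-Hochberg adjustment. At an adjusted p under 0.05, 40 genes were lower in HLU (0.51% of those tested) and 0 were higher (0%), with 218 higher and 171 lower at an unadjusted p under 0.05. DESeq2 called 60 lower and 1 higher. Both HLU libraries were above both Ctrl libraries for 1557 genes (19.8%) and below both for 1338 (17.1%). The levels below are CPM scaled by the trimmed mean of M values (TMM). Without those factors (0.896, 0.931, 1.01 and 1.18) the median log2 fold change of all genes was 0.32 in place of 0.05, and the placements became 33.4% above and 8.08% below. Because the libraries are the replicates, each p sets the group difference against the variation between 2 mice a group. That variation was estimated with information shared over genes. Leaving out HLU replicate 1 gave 2346 calls (1114 higher, 1232 lower), leaving out HLU replicate 2 gave 118 (22 higher, 96 lower) and leaving out Ctrl replicate 2 gave 24 (1 higher, 23 lower). Without the filter on low counts 62 genes were higher and 153 lower. In these fits the lone library of a group is assumed to vary like the pair of the other group.

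None of the tested primary granule genes was called. Elane was at 12421, 12306, 9168 and 6799 TMM-scaled CPM and Prtn3 at 8335, 7507, 5659 and 4320.3. Both had their lowest value in HLU replicate 2, and for both the HLU libraries lay below the Ctrl libraries. Mpo was at 1633, 2414, 2312 and 1526, with overlapping groups. Ctsg was at 1764, 2443, 1627 and 4156, so that HLU replicate 2 was high and HLU replicate 1 low. These 4 genes chose the barcodes and were not tested.

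The mixture of the 4 proteins' transcripts differed more in HLU replicate 2 than elsewhere. Ctsg supplied 7.30%, 9.90%, 8.67% and 24.7% of the UMIs of the 4 genes. Elane supplied 51.4%, 49.9%, 48.9% and 40.5%, Prtn3 34.5%, 30.4%, 30.2% and 25.7%, and Mpo 6.76%, 9.79%, 12.3% and 9.08%. The summed share of the 4 genes had medians of 1.69%, 1.97%, 1.65% and 1.78% of a progenitor's UMIs, with maxima of 4.77%, 5.41%, 4.87% and 4.30%, and gave no such outlying library.

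Of the other 9 tested primary granule genes, 0 were called, 3 lay below in both HLU libraries and 1 above (33.3% and 11.1%, against 17.1% and 19.8% of all genes). Their median log2 fold change was 0.03, beside 0.05 over all genes. Ms4a3 was at 1063, 990.3, 911 and 1233 TMM-scaled CPM, with overlapping groups (log2 fold change 0.06, SE 0.32, edgeR adjusted p = 0.963). Prss57 was at 149, 169, 122 and 91.5, below in both HLU libraries (-0.58, SE 0.33, edgeR adjusted p = 0.813). Srgn (serglycin, the proteoglycan that packs granule proteases) was at 3253, 3455, 2593 and 1917, and Nkg7 at 437, 374, 316 and 212, again with both HLU libraries low and no call. In plain CPM Srgn was also low in both HLU libraries in secondary granule barcodes (1679, 1651, 769 and 281). The same held in B cell barcodes (1271, 1160, 1142 and 766). In barcodes with monocyte transcripts its groups overlapped (2236, 2204, 2615 and 2202). Lyz2 (lysozyme) was at 1453, 1409, 1665 and 1842, and was the gene placed above. Without HLU replicate 1, with HLU replicate 2 alone against Ctrl, Prss57, Srgn and Nkg7 passed the test as lower.

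**Figure D2:**
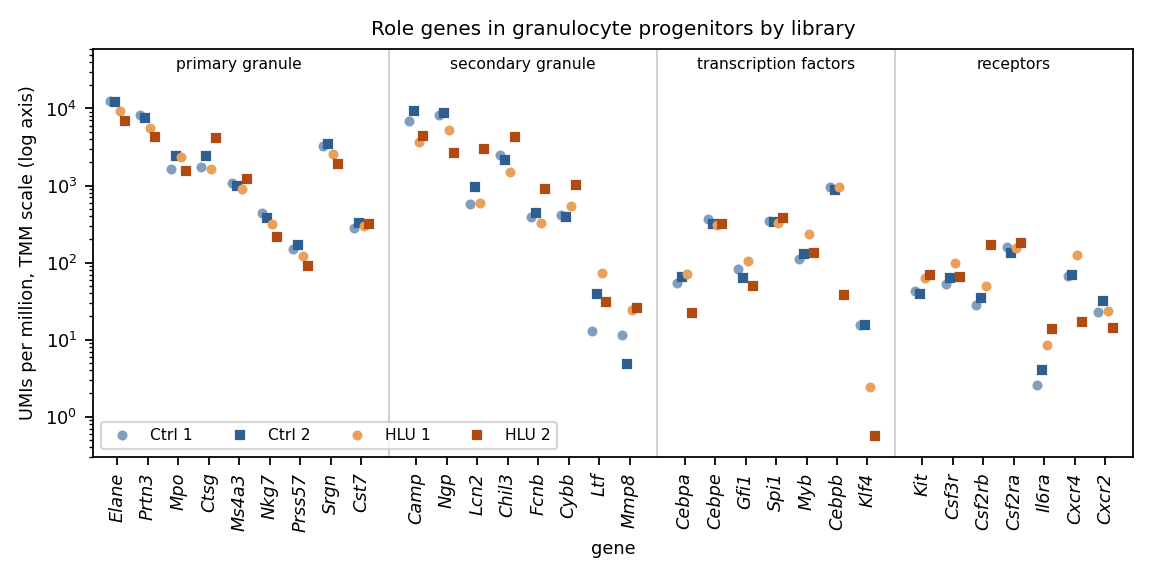
TMM-scaled CPM (log axis) of named genes of each role in the granulocyte progenitors, 1 point for each library. Most primary granule genes lie within a narrow band over the 4 libraries, while Ctsg, Lcn2 and Csf2rb are high and Cebpb, at 38.0, is low in HLU replicate 2.

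None of the 13 secondary granule genes passed the test. Camp was at 6958, 9407, 3664 and 4372 TMM-scaled CPM (log2 fold change -1.03, SE 0.35, edgeR adjusted p = 0.813). Ngp (neutrophilic granule protein) was at 8154, 8835, 5325 and 2663. For both the Ctrl libraries were the higher ones without overlap. Mmp8 was at 11.6, 4.76, 24.5 and 25.9, higher in both HLU libraries (1.73, SE 0.52, edgeR adjusted p = 0.803), though below B cell barcodes in every library (10.3, 4.39, 24.6 and 30.3 against 14.1, 68.5, 153.8 and 174.7 plain CPM), so that Mmp8 was read as background like Ltf. Cybb, the large subunit of the NADPH oxidase, was at 417, 392, 549.7 and 1002. Lcn2 (lipocalin 2, which binds iron carriers of bacteria) was at 567, 945, 589 and 2981, and Fcnb (ficolin B) at 392, 436, 328 and 903, both high in HLU replicate 2 alone. HLU replicate 2 was also high in secondary granule barcodes, with Lcn2 at 8429, 10589, 8269 and 19106 CPM and Fcnb at 176, 239.7, 184 and 905 CPM, and in B cell barcodes. In plain CPM Lcn2 in progenitors (504, 871, 591 and 3480) lay below B cell barcodes (1112.5, 1491, 1080 and 3222) except in HLU replicate 2. After thinning to 3000 UMIs, Lcn2 was seen in 53.2%, 65.5%, 54.1% and 94.2% of progenitors, above B cell barcodes with 34.5%, 45.9%, 39.0% and 52.8%. The part of background in Lcn2 was not tested. Hp (haptoglobin) was level, at 2337, 2279, 2212 and 2301. Over the list, 3 genes lay above and 2 below in both HLU libraries (23.1% and 15.4%, against 19.8% and 17.1% of all genes). The median log2 fold change of 0.32 became -0.20 without HLU replicate 2. Camp passed as lower without HLU replicate 2 (-1.17, edgeR adjusted p = 4.74e-06) and without HLU replicate 1. Without HLU replicate 1, Ngp also passed as lower and Lcn2, Fcnb, Cybb and Mmp8 as higher, and without HLU replicate 2 Ltf, read as background above, did as higher.

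Among 14 tested transcription factors of the lineage, 0 were called, 3 lay above and 2 below (21.4% and 14.3%, against 19.8% and 17.1% of all genes). Cebpe was at 371, 313, 306 and 315 TMM-scaled CPM (log2 fold change -0.14, SE 0.30, edgeR adjusted p = 0.914), and Spi1, which encodes PU.1, at 342, 340.3, 323 and 384. Gfi1, a repressor needed for neutrophils, was at 82.2, 63.3, 105 and 49.7. Neither group stood apart for these 3. Klf4, a factor of the monocyte branch, was at 15.4, 15.7, 2.45 and 0.557, from 12, 23, 4 and 5 UMIs, with both HLU libraries low (-3.88, SE 0.75, edgeR adjusted p = 0.124). In plain CPM Klf4 was at 21.9, 37.8, 2.06 and 0.680 in secondary granule barcodes, 71.5, 122.6, 17.0 and 7.77 in B cell barcodes and 428, 359, 23.4 and 15.1 in all barcodes other than the progenitors, so the same order of groups was seen in these classes, as for the cartilage genes below. In the few barcodes with monocyte transcripts Klf4 was at 0, 10.5, 2.31 and 0.965, and the groups overlapped. Myb was at 110.4, 130.0, 233 and 133 and Runx1 at 48.8, 49.7, 62.5 and 60.5, both above in HLU without a call. Without HLU replicate 2, Klf4 passed as lower (edgeR adjusted p = 0.0317) and Myb as higher (0.0281), and without HLU replicate 1 Klf4 again as lower. The median of the list was -0.10 and turned to 0.17 without TMM factors, and to 0.16 without HLU replicate 2.

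Cebpb, the C/EBP factor of emergency granulopoiesis, separated 1 library from the rest. It was at 953, 867, 967 and 38.0 TMM-scaled CPM in granulocyte progenitors. HLU replicate 1 was level with the Ctrl libraries, and the log2 fold change of -0.86 became 0.08 without HLU replicate 2, while without HLU replicate 1 it passed as lower. In plain CPM it was at 1175, 1395, 1063 and 71.1 in secondary granule barcodes and at 350.0, 457, 426 and 31.1 in B cell barcodes. The low value in HLU replicate 2 was thus found in all 3 classes.

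Receptors were the role in which the most genes lay above the Ctrl libraries. Of 14 tested, 0 were called, but 8 lay above in both HLU libraries (57.1%, against 19.8% of all genes) and 1 below, with a median log2 fold change of 0.47. Kit was at 42.4, 38.8, 63.7 and 69.3 TMM-scaled CPM (log2 fold change 0.72, SE 0.33, edgeR adjusted p = 0.813). Csf2rb, the beta chain shared by the GM-CSF, IL-3 and IL-5 receptors, was at 28.2, 34.7, 49.6 and 168. Il6ra was at 2.57, 4.08, 8.58 and 13.6, from 2, 6, 14 and 122 UMIs. All 3 were highest in HLU replicate 2, with the second highest value in HLU replicate 1. Il6ra in progenitors, at 2.28, 3.76, 8.61 and 15.9 plain CPM, lay below B cell barcodes (10.2, 14.5, 16.7 and 30.3) in every library. Csf3r, the G-CSF receptor, was at 52.6, 64.0, 97.4 and 65.7, so that Ctrl replicate 2 and HLU replicate 2 lay close together. Itgam, Itga4, Il3ra and Tlr4 were the other 4 placed above. Itga4, at 17.1, 24.5, 33.2 and 50.6 plain CPM, lay below B cell barcodes (77.9, 70.4, 95.2 and 112.6) in every library. It lay above secondary granule barcodes (6.46, 3.66, 10.3 and 8.41 plain CPM) in every library. The part of free RNA in Il6ra and Itga4 was not tested. Il6ra and Itga4 are both counted among the 8 placed above. The same order was seen in other classes, with Itgam at 351, 365, 552 and 503 CPM and Csf2rb at 38.6, 41.9, 51.2 and 180.3 CPM in secondary granule barcodes, and with the whole list at 0.0497%, 0.0679%, 0.122% and 0.0912% of UMIs in B cell barcodes. Cxcr4, which holds granulocytes in the marrow, was at 66.8, 68.1, 126 and 17.1, with the HLU libraries at either end, and Cxcr2, which mediates their release, at 23.1, 32.0, 23.3 and 14.4. The median of the receptors was 0.34 to 0.42 when 1 library was left out, with 0.73 without TMM factors. With at least 2% of UMIs from the 4 genes it was 0.076, near the 0.04 of all genes in that fit. Without HLU replicate 1, Kit, Csf2rb, Il6ra, Itga4 and Itgam passed as higher and Cxcr2 and Cxcr4 as lower, and without HLU replicate 2 none of the receptors named here passed.

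Stem and early progenitor genes were sparse. Of 12 listed, 6 had enough counts to be tested, 0 were called, and 2 (Kit and Cdk6) lay above and 1 below. Over all genes 19.8% lay above and 17.1% below. Cdk6, a kinase of the G1 phase, was at 121, 139, 185 and 156 TMM-scaled CPM. The median of the 6 was -0.21 and turned to 0.04 without TMM factors. Flt3 had 0, 3, 0 and 0 UMIs. Of the other role lists, the transcription factors Gata2 and Gata1 had 1, 3, 2 and 5 UMIs and 0 in all 4 libraries, and the receptor Csf2rb2 had 2, 2, 2 and 42. In percent of UMIs the list was at 0.0182, 0.0258, 0.0317 and 0.0356 in granulocyte progenitors and at 0.00359, 0.00418, 0.00381 and 0.00388 in secondary granule barcodes. B cell barcodes, at 0.0284, 0.0284, 0.0369 and 0.0114, were higher than the progenitors in 3 libraries, and the barcodes with monocyte transcripts, at 0.0336, 0.0570, 0.0572 and 0.0569, in all 4.

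Other granule genes varied along the share of UMIs from the 4 genes, the value that also chose the barcodes. Those at 1 to 2% numbered 42, 55, 88 and 217 and those at 2 to 5% numbered 30, 51, 50 and 138, with 2 more above 5% in Ctrl replicate 2. Ngp was at 10419, 12464, 6984 and 4612 CPM in the range of 1 to 2% and at 3798, 4492, 2418 and 1021 CPM in that of 2 to 5%, lower in every library. Camp went from 7872, 15974, 4974 and 8045 CPM to 4345, 2348, 1361 and 1019.8. Kit went the other way in 3 libraries, from 24.2, 48.9 and 59.7 to 46.2, 90.8 and 110.2 CPM, and was level in Ctrl replicate 1 at 37.3 and 38.0. Ms4a3 was at 675, 749.8, 795 and 1285 CPM in the lower range and at 1236, 1039, 1128 and 1653 in the upper. The progenitors richest in primary granule transcripts therefore had the most Ms4a3 and the least Ngp in each library. Part of such an order is built in, because shares of 1 barcode sum to a fixed total.

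**Figure D3:**
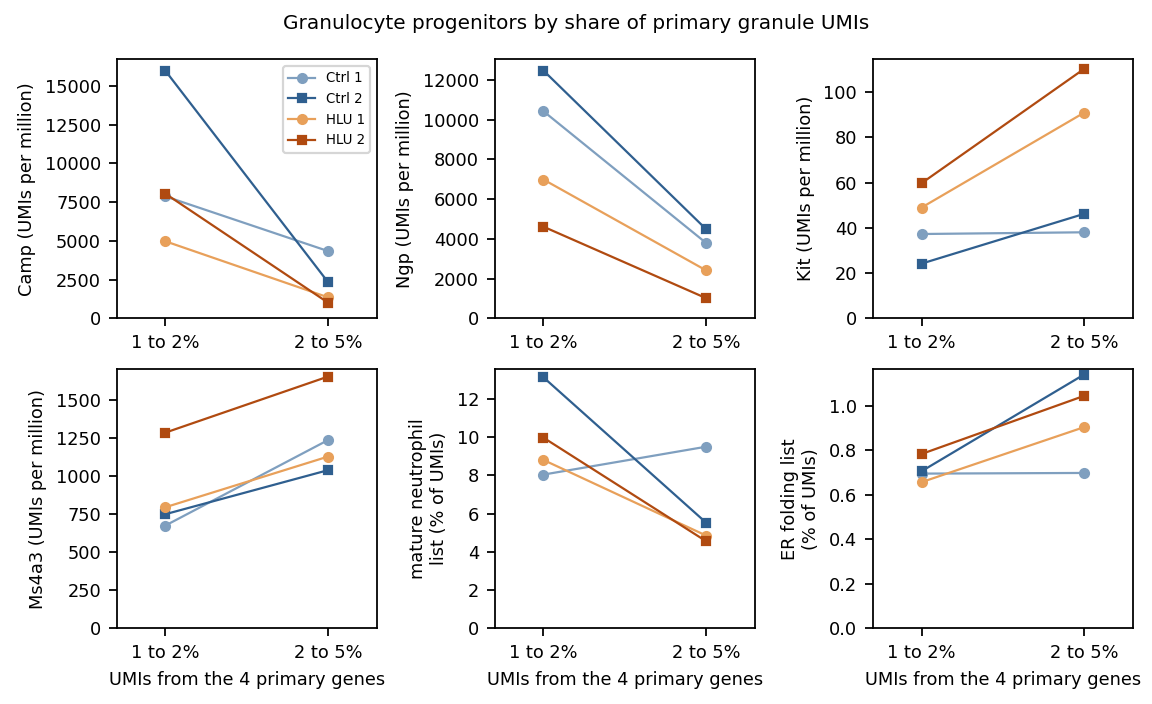
Levels in granulocyte progenitors with 1 to 2% and with 2 to 5% of UMIs from the 4 primary granule genes (horizontal axis), as CPM or percent of UMIs (vertical axes), with 1 line for each library. Camp and Ngp slope down and Ms4a3 slopes up in all 4 libraries, while the mature neutrophil list goes up in Ctrl replicate 1 and down in the other 3.

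Across single barcodes of 1 library, Spearman's rho between the share of the 4 genes and the secondary granule list, nearly 0 in Ctrl replicate 1, was -0.06, -0.28, -0.39 and -0.50 (72, 108, 138 and 355 barcodes). For the list of endoplasmic reticulum folding and secretion genes, which load granule proteins into the secretory path, rho was 0.04, 0.35, 0.31 and 0.48. For the stem and early progenitor list it was 0.06, 0.21, 0.35 and 0.34. Barcodes share their library's depth and free RNA, and rho with the UMI total of the barcode was 0.30, 0.18, 0.09 and 0.14. These are descriptions without a test.

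G2 and M phase transcripts were widespread among the granulocyte progenitors. Their list took 0.386%, 0.258%, 0.445% and 0.351% of the progenitors' UMIs and 0.267%, 0.293%, 0.304% and 0.359% of those of secondary granule barcodes, which were the higher in Ctrl replicate 2 and HLU replicate 2. After thinning to 3000 UMIs, 71.9%, 66.0%, 75.9% and 74.3% of granulocyte progenitors were expected to hold at least 3 UMIs of the G2 and M phase list, against 45.6%, 48.2%, 45.8% and 43.2% of secondary granule barcodes and 26.9%, 33.0%, 36.7% and 29.0% of B cell barcodes. In the barcodes with monocyte transcripts it was 55.3%, 63.9%, 69.6% and 75.8%, above the progenitors in HLU replicate 2. Without thinning the progenitors' shares were 91.7%, 94.4%, 91.3% and 98.9%. HLU was higher by 6.16 points, from 69.0% ± 4.11 (SD, n = 2) in Ctrl to 75.1% ± 1.14 (SD, n = 2), with an exact permutation p of 0.333, but with at least 2% of UMIs from the 4 genes the shares were 82.8%, 70.2%, 81.9% and 74.9% and the groups overlapped. The S phase list was found in 28.8%, 37.6%, 29.6% and 72.8%, against 18.0%, 18.2%, 13.4% and 21.4% of secondary granule barcodes and 26.9%, 29.3%, 28.0% and 27.4% of B cell barcodes. Only HLU replicate 2 was far above the B cell barcodes, and Ctrl replicate 1 and HLU replicate 1 were about level with them. The difference of 18.0 points (exact permutation p = 0.667) turned to -3.57 points without it. Of 27 tested G2 and M phase genes, 0 were called, 8 lay above and 1 below, and of 22 S phase genes 0 were called, 1 lay above and 2 below (19.8% above and 17.1% below over all genes).

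Genes of cartilage and connective tissue were frequent among the 40 that fell. The cartilage list had 12 of its 13 tested genes called lower, and the mesenchymal list 5 of 8, against 0.51% of all tested genes. With at least 10 counts in every library, only 1 of the 40 calls was still tested, and it was called lower. Cytl1, a secreted cartilage protein, was at 202, 258, 1.23 and 2.78 TMM-scaled CPM (log2 fold change -6.60, SE 0.48, edgeR adjusted p = 0.00356). Comp (cartilage oligomeric matrix protein) was at 172, 84.4, 1.84 and 0.111 (-8.04, SE 0.91, edgeR adjusted p = 0.0122), and Dcn (decorin) at 716, 549.9, 4.90 and 26.8 (-5.20, SE 0.70, edgeR adjusted p = 0.0233). In each case both Ctrl libraries were above both HLU libraries. Tnfrsf11b (osteoprotegerin, the decoy receptor for RANKL) had 13, 54, 0 and 0 UMIs and was at least 105-fold lower in HLU, taking 3 UMIs over the group as the floor, a bound that HLU replicate 2 set and that was 16.2-fold without it. The other largest falls were those of Ddit4l, Ndufa4l2, Rbp4, Col2a1, Hapln1, Chad, Cpe and Col10a1, with log2 fold changes from -8.19 to -6.88. The medians were -6.66 over 13 of 18 listed cartilage genes and -4.80 over 8 of 20 mesenchymal genes, and all 21 lay below in both HLU libraries. The low-count filter can be passed on the counts of 1 group alone, as by Col10a1 with 13, 56, 1 and 1 UMIs. The shared direction is therefore not independent of the filter, and listed genes with too few counts were not tested. Prg4, Spp1 and Mgp did not pass, but did when either HLU library was left out. Hapln1 did not pass without Ctrl replicate 1, nor Col10a1 without Ctrl replicate 2.

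Genes of these lists are the products of chondrocytes and stromal cells, and they were counted in every class of barcode in the Ctrl libraries. The cartilage list took 0.131%, 0.154%, 0.00172% and 0.00638% of the UMIs of granulocyte progenitors. It took 0.261%, 0.327%, 0.0109% and 0.00685% in secondary granule barcodes, 0.764%, 1.24%, 0.00108% and 0.00753% in B cell barcodes and 4.19%, 3.53%, 0.0437% and 0.0811% in all barcodes other than the granulocyte progenitors. The Ctrl libraries were higher by more than 10-fold in these 4 classes. In the 148 barcodes with monocyte transcripts the list took 0.0409%, 0.0689%, 0.000692% and 0.0157%, with the Ctrl libraries higher by less. At least 1 UMI of either list was in 72 of 72, 108 of 108, 64 of 138 and 179 of 355 granulocyte progenitors, and the 5 richest held 49.5%, 48.3%, 46.8% and 40.7% of these UMIs. Prg4 (lubricin) was the most abundant cartilage gene and Dcn the most abundant mesenchymal gene, and Matn1 and Lepr were at 0. The part of free RNA or of joined cells in these counts was not tested. Setting aside the genes of the lists of other cells before the fit left 19 calls, all lower. With the upper UMI limit lifted, an alternative chosen after seeing the data, 3 calls were left, and the medians were -3.79 over the cartilage list and -2.04 over the mesenchymal list.

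**Figure D4:**
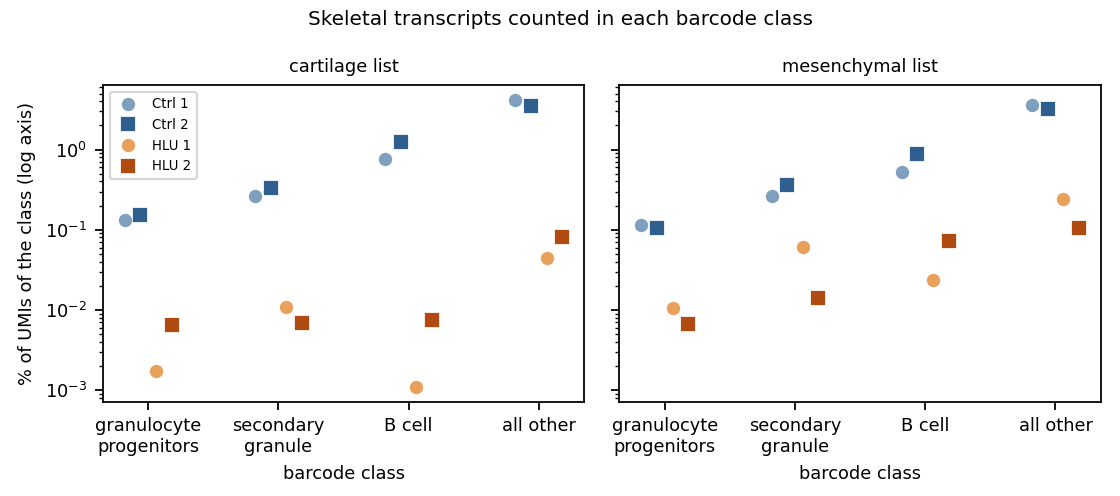
Percent of UMIs (log axis) from the cartilage list (left) and the mesenchymal list (right) in 4 classes of barcodes, 1 point for each library. In granulocyte progenitors, as in the other classes, both Ctrl libraries lie above both HLU libraries, with 0.131% and 0.154% of cartilage UMIs against 0.00172% and 0.00638%.

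No rise passed the test. The 10 of smallest p were Rbm24, Il1b, Gm5483, Stfa1, Hbb-bs, Dnmt3a, Ifitm6, Rad54l2, Fpr1 and Gtf2a1. Il1b (interleukin 1 beta) was at 8.99, 8.85, 27.6 and 50.7 TMM-scaled CPM (log2 fold change 2.15, SE 0.47, edgeR adjusted p = 0.217). Gm5483 was at 0, 6.13, 48.4 and 29.2 (3.34, SE 0.76, edgeR adjusted p = 0.272), and DESeq2 called it. It belongs with Stfa1 to the stefin A family of near-identical cysteine protease inhibitors, whose reads can be assigned to the wrong copy. Rbm24, an RNA-binding protein, was at 1.28, 0.681, 9.19 and 21.4, from 1, 1, 15 and 192 UMIs. The HLU libraries were above the Ctrl libraries in all 3 cases. Hbb-bs is a beta globin gene, and globin UMIs were limited by the rule. It was also higher in both HLU libraries in secondary granule barcodes (17.7, 13.8, 46.8 and 39.0 CPM) and in B cell barcodes (29.4, 11.9, 72.8 and 73.0 CPM). The part of free RNA in the 10 rises was not tested. All 10 passed without HLU replicate 1. Without HLU replicate 2, Il1b (edgeR adjusted p = 0.0452), Gm5483, Stfa1, Hbb-bs and Ifitm6 passed, and Gm5483 did so without Ctrl replicate 2 too.

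Metabolic and translation lists gave 1 called gene, Ndufa4l2, which the name pattern of the respiratory chain list had taken in. Gapdh, of glycolysis, was at 6823, 6812, 5477 and 1497 TMM-scaled CPM, and Ero1l, a hypoxia target, at 537, 728, 334 and 197 (log2 fold change -1.26, SE 0.37, edgeR adjusted p = 0.803). HLU replicate 2 was the lowest library for both, and both passed as lower without HLU replicate 1, Ero1l also without HLU replicate 2. Of 21 tested glycolysis genes 12 lay below and 2 above (median -0.86), and of 14 hypoxia targets 10 lay below and 0 above (median -1.22), against 17.1% and 19.8% of all genes. Without TMM factors these counts were 9 and 4, and 8 and 0. The medians rested in part on HLU replicate 2, with -0.33 and -0.66 without it and -1.54 and -1.90 without HLU replicate 1. The glycolysis median was -0.48 without Ctrl replicate 2. The glycolysis list took 1.62%, 1.82%, 1.51% and 0.608% of the progenitors' UMIs, and 2.04%, 2.26%, 1.82% and 0.493% of those of secondary granule barcodes. The hypoxia list took 0.136%, 0.203%, 0.123% and 0.0663% of the progenitors' UMIs. It was also lower in both HLU libraries in secondary granule barcodes (0.232%, 0.351%, 0.191% and 0.0419%) and in B cell barcodes (0.186%, 0.231%, 0.116% and 0.0448%). The same held in all barcodes other than the progenitors (0.431%, 0.5605%, 0.251% and 0.0519%). In barcodes with monocyte transcripts the groups overlapped for the hypoxia list. Ribosomal protein genes lay below in 46 of 76 (median -0.37), which became 15 of 76 without TMM factors. Ribosome biogenesis genes had a median of 0.998 that turned to -0.32 without HLU replicate 2, where Ncl (nucleolin) was at 902 against 157, 212 and 165.

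**Figure D5:**
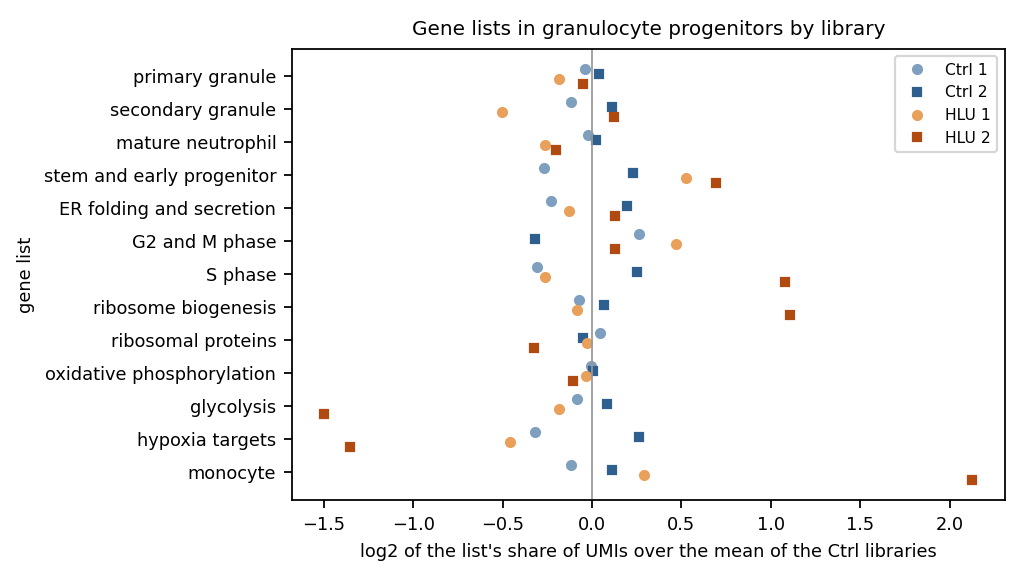
Share of UMIs of each gene list in granulocyte progenitors, as log2 of its ratio to the mean of the Ctrl libraries, 1 point for each library. HLU replicate 2 lies far to the right for S phase, ribosome biogenesis and monocyte genes and far to the left for glycolysis and hypoxia targets, while HLU replicate 1 stays nearer to the Ctrl libraries.

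Several markers of other cell types were absent, while others of the same lists were counted. Markers of mature neutrophils and monocytes were counted too, as were those of cartilage and mesenchyme in the Ctrl libraries. The eosinophil genes Epx, Ear1, Ear2, Ear6 and Il5ra, the B cell factor Pax5, the lymphocyte genes Gzma and Ncr1 and the macrophage genes C1qa, C1qb and C1qc had 0 UMIs in all 673 barcodes. Of the B cell list, however, Igkc had 3, 25, 49 and 18 UMIs. In plain CPM the basophil gene Hdc was at 119, 101, 129 and 90.5. The dendritic cell gene H2-Ab1 was at 47.9, 57.7, 43.7 and 21.2, and Prg2 of the eosinophil list at 0, 1.25, 3.08 and 2.08. The macrophage list stood at 0.0450%, 0.0416%, 0.0902% and 0.0582%, nearly all of it Vcam1. The monocyte list, whose 3 rule genes were limited, was at 0.163%, 0.191%, 0.217% and 0.774% of UMIs, led by Ly6c2 at 1586, 1682, 2009 and 6550.1 TMM-scaled CPM. Ly6c2 was high in HLU replicate 2 in secondary granule barcodes as well, at 2738 CPM against 249, 262 and 376. The mature neutrophil list was at 8.74%, 9.01%, 7.38% and 7.70%, led by S100a9, and 25.1%, 25.5%, 25.4% and 30.3% in secondary granule barcodes. Whether S100a9 in granulocyte progenitors was their own or free RNA was not tested. In B cell barcodes the list was at 0.773%, 1.37%, 3.95% and 4.55%.

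Whether unloading acted differently on granulocyte progenitors than on secondary granule barcodes was tested as the class by group term in edgeR, with library as a term, over 11018 genes. The term was called for 13 genes (0.118%), 9 with the higher and 4 with the lower effect in granulocyte progenitors. Thbs1 (thrombospondin 1), singled out after its values were seen, had the most UMIs of the 13 in granulocyte progenitors. It was at 624, 794, 1232 and 1400.1 CPM in granulocyte progenitors (log2 fold change 0.91) and at 1673, 2543, 1355 and 952 in secondary granule barcodes (-0.87), so that the Ctrl libraries were low in the first class and high in the second. The difference was 1.76 (SE 0.29, edgeR adjusted p = 0.0135). With at least 10 counts in every library 4 of the 13 were still tested and none of these was called, and Thbs1 had a difference of 1.83 (edgeR adjusted p = 0.0788). It also did not pass without Ctrl replicate 1 (0.1004) or without Ctrl replicate 2 (0.253), and passed without either HLU library. Of the other called genes, Sparc, Cytl1, Chad, Col2a1 and Prg4 belong to the cartilage and mesenchymal lists. None of the primary granule, secondary granule, transcription factor or receptor genes was among the 13.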

How the data were processed

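The authors deposited raw UMI counts per gene and barcode, made with Cell Ranger 6.0.0 on the mm10 reference 3.0.0, with Seurat 4.1.0 also in the submitters' processing notes. Low and high barcodes, and doublets by a caller, were removed in the study only after the deposited step. Here the counts of 31053 genes in 4 libraries were used as deposited. The barcodes, the 35 gene lists and the tests were chosen with earlier results of these data known. UMIs were summed per library over the granulocyte progenitors and tested with edgeR 4.0.16 (quasi-likelihood, TMM factors, filterByExpr, R 4.3.3), adjusted over all tested genes by the Benjamini-Hochberg method. The genes of the rule stayed in the fit without a reported test. The same model was first tested on simulated data. DESeq2 1.42.0 was an alternative, with others on limits, filters, scaling and libraries. Putative doublets were kept in the main result. As an alternative the barcodes of highest Scrublet score were removed (scanpy 1.11.5), 0.8% for each 1000 barcodes, which took 2, 6, 3 and 12 granulocyte progenitors. Shares were thinned as hypergeometric expectations. Named were the genes of the 5 role lists, the 4 most abundant or the called genes of each other list, and the 10 largest called falls and rises, filled up by smallest p where fewer were called. Leading genes had at least 100 CPM and the largest folds. Exact tests and intervals used scipy 1.17.1. Summed over genes, the libraries differed far beyond sampling noise, so none was counted as a copy of another.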

Additional observations from a re-analysis of the deposited data

Results flagged for a closer look

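The effect of unloading differed between granulocyte progenitors and secondary granule barcodes, by edgeR's adjusted p of the class by group term, for the 13 genes that follow, each given as the log2 effect in the progenitors minus that in the secondary granule barcodes in the joint fit. The effects in parentheses come from a separate fit of each class, so they do not subtract exactly to the difference. Among skeletal genes the difference was 2.94 for Prg4 (-4.27 against -7.24), -2.78 for Sparc (-6.01 against -3.22), -2.84 for Cytl1 (-6.60 against -4.18), -3.10 for Chad (-7.23 against -4.30) and -3.32 for Col2a1 (-7.30 against -3.23). Without HLU replicate 2 these became 3.59, -2.40, -0.757, -1.71 and -2.74, so those of Cytl1 and Chad rested largely on that library. Without HLU replicate 1 the difference for Col2a1 was -6.24, and DESeq2 did not call Col2a1 (DESeq2 adjusted p = 0.111). The share of UMIs from the cartilage list was lower in granulocyte progenitors than in secondary granule barcodes in every library, and its part in these differences was not tested.

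For Thbs1 the difference was 1.76 (0.91 against -0.87), for S100a4 2.84 (0.998 against -1.84) and for Mras 3.78 (1.38 against -2.41), the 3 genes whose effects had opposite signs. It was 2.81 for Hspa1b, an inducible chaperone (-0.35 against -3.26), 2.09 for Mt2, a metallothionein (-1.52 against -3.86), 2.90 for Igfbp7 (-2.83 against -5.19) and 1.51 for Serpine2 (-0.66 against -2.17). For Gm10457 it was 12.1, and its 0, 0, 45.9 and 0 CPM show that HLU replicate 1 alone carried it.

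The 40000 UMI limit kept 38 barcodes of HLU replicate 2 out of the comparisons although they met every other limit, against 1, 0 and 0 in the other libraries. They entered only the alternative without an upper UMI limit.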

How the results depend on the processing

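The difference in the share of granulocyte progenitors stayed above 0 in each alternative, with 0.610 to 2.77 points when 1 library was left out and 0.547 points with a primary granule minimum of 2%, where the groups overlapped. Leaving out 1 library gave 3.25 to 9.07 points for the G2 and M phase shares and -3.57 to 39.6 for the S phase shares, with -3.57 without HLU replicate 2. The G2 and M phase difference was 1.82 points with the 2% minimum and 2.03 without thinning, and the S phase difference 0.847 without thinning. The 40 calls became 14 with a primary granule minimum of 2%, 61 with DESeq2, 215 with no filter on low counts (62 higher, 153 lower), 1 with at least 10 counts in every library, 19 without transcripts of other cells and 24 to 2346 when 1 library was left out. Lifting the upper UMI limit, chosen after seeing the data, gave 3. All of the 40 that were tested stayed lower in every alternative. The replicate numbers are shared by the groups only as numbers (r = 0.0956 between same-numbered deviations over 7844 genes), and the fit with the replicate block called 94 genes, 10 higher and 84 lower. The 13 calls of the class by group term became 151 with no filter, 0 with at least 10 counts in every library, where 4 of the 13 were tested (442 at an unadjusted p under 0.05; DESeq2 11 without that filter) and 31 to 1024 when 1 library was left out. Fewer genes were tested under the 2% minimum and the count minimum; the other causes were not tested.

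Median log2 fold changes of lists moved as follows. Without TMM factors they were 0.31 (primary granule), 0.64 (secondary granule), 0.17 (transcription factors), 0.73 (receptors), -0.12 (ribosomal proteins), -6.35 (cartilage) and -4.49 (mesenchymal). With a primary granule minimum of 2% they were 0.71 (stem and early progenitor), 0.076 (receptors), -6.31 (cartilage) and -5.56 (mesenchymal), and with one of 0.5% -7.57 and -5.05 for the last pair. With equal cells (72 a library) they were 0.48 (stem), 0.29 (receptors), -6.01 (cartilage) and -5.63 (mesenchymal). With at least 10 counts in every library the stem list was at 0.46 and the mesenchymal list at -1.70. Without an upper UMI limit cartilage was at -3.79 and mesenchymal at -2.04. Cartilage was at -6.47 with doublets removed, -6.97 with a UMI minimum of 2000 and -6.87 with DESeq2. Leaving out 1 library gave -0.37 to 0.20 (primary granule), -0.20 to 0.58 (secondary granule), -0.52 to 0.30 (stem), -0.17 to 0.16 (transcription factors), 0.34 to 0.42 (receptors), -0.44 to 0.86 (S phase), -0.14 to 0.65 (G2 and M phase), -0.32 to 1.64 (ribosome biogenesis), -0.62 to -0.20 (ribosomal proteins), -1.54 to -0.33 (glycolysis), -1.90 to -0.66 (hypoxia targets), -6.81 to -6.08 (cartilage) and -5.09 to -4.56 (mesenchymal). Of the values for single named genes 2643 kept their direction and side of the threshold, 141 newly passed it, 53 lost it and 241 moved beyond the spread. With 2 mice a group, 72 granulocyte progenitors in the smallest library and a depth that differed by library, small differences were not detectable.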

Other observations

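Barcodes with at least 1% of UMIs from the 4 primary granule genes that also held 3 or more UMIs of Csf1r, Ms4a6c and Ccr2 were kept out of the granulocyte progenitors. They numbered 6, 13, 24 and 105. Irf8, a factor of monocytes and dendritic cells, was at 125.9, 143, 122 and 14.5 CPM in them and at 0, 18.8, 14.8 and 0.780 CPM in granulocyte progenitors. Cebpe went the other way, with 136, 98.0, 96.9 and 130.0 CPM against 329.6, 289, 308 and 367 CPM. Kit was at 52.5, 84.0, 99.2 and 149 CPM in these barcodes and at 37.6, 35.8, 64.0 and 80.8 CPM in granulocyte progenitors. The higher Irf8 and lower Cebpe were seen in each library, though the rule had parted the barcodes on monocyte genes, so no test was made.

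Stress, survival and inflammation lists gave 1 call among the granulocyte progenitors, the small heat shock protein Hspb1, at 98.9, 62.6, 3.06 and 1.11 TMM-scaled CPM (edgeR adjusted p = 0.00944), in a list with 3 of 12 genes below and 1 above in both HLU libraries. Ier3, an immediate early gene, was at 296.6, 364, 212 and 208 TMM-scaled CPM, below in both HLU libraries without a call, and 6 of the 13 tested immediate early genes were so placed, against 1 above (17.1% and 19.8% of all genes). Without TMM factors these counts were 3 and 2. In all barcodes other than the progenitors Ier3 was also lower in both HLU libraries, at 992, 1314, 302 and 410 plain CPM. In barcodes with monocyte transcripts Ier3 was at 367, 315, 231 and 325 plain CPM, and the groups overlapped. Il1r2, the decoy receptor for interleukin 1 that glucocorticoids induce, was at 56.5, 48.3, 19.0 and 21.3 (log2 fold change -1.36, edgeR adjusted p = 0.439). Both genes passed as lower without HLU replicate 1, and Il1r2 also without HLU replicate 2. The list of Il1r2 had 3 of 9 genes below and 1 above. Nfkbia, the inhibitor of NF-kB, was level at 878, 713, 797 and 754.

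Of the other lists, those of the respiratory chain (Ndufa4l2) and of monocytes (Fn1) had 1 call each. Fn1 was also higher in both Ctrl libraries in B cell barcodes (709, 1386, 22.7 and 10.1 CPM) and in secondary granule barcodes (333, 394, 40.4 and 12.4 CPM). In the barcodes with monocyte transcripts it was at 10.5, 101, 16.1 and 13.2 CPM, and the groups overlapped. Over all tested genes 19.8% lay above and 17.1% below in both HLU libraries, and several of the shares here were near these. Above and below lay 5 and 1 of 11 anti-apoptotic genes, 3 and 1 of 17 pro-apoptotic genes, 3 and 0 of 12 NF-kB and inflammatory genes, 1 and 0 of 7 interferon-stimulated genes and 0 and 2 of 6 cell cycle inhibitors. For metabolism and secretion the counts were 3 and 5 of 19 genes of glutamine metabolism, 2 and 1 of 13 of serine synthesis and ATF4 and 0 and 3 of 25 of endoplasmic reticulum folding. Of the respiratory chain list 4 and 41 of 86 genes lay above and below, which became 6 and 14 without TMM factors. Markers of other cells gave 3 and 4 of 11 for mature neutrophils, 3 and 0 of 4 for erythroid cells, 2 and 2 of 6 for monocytes, 0 and 1 of 2 for dendritic cells and 0 and 0 of 2, 3 and 1 tested genes for basophils, B cells and macrophages.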
